A study of Mus musculus with 12 samples.

Results

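Genes of the adenosine triphosphate (ATP)-dependent chromatin remodelling complexes were followed in mouse skeletal muscle. The set holds 36 genes, chosen by gene symbol from a list of catalytic ATPases and their main partner subunits, out of 23185 array entries with 1 gene symbol, and all 36 were on the array. The list was drawn up with earlier results of these data known, so counts within it beside those of all genes are descriptions, not tests. They fall into the SWI/SNF family (16 genes), the ISWI family (7), the CHD family (8), the INO80 and SWR family (3) and other SNF2-type enzymes (2), and 17 of them are catalytic ATPases. RNA was measured on 12 Affymetrix Gene ST arrays, 5 from mice injected with recombinant IL-8, 4 from mice injected with recombinant KC, and 3 from mice injected with vehicle. IL-8 is a human neutrophil-attracting chemokine for which mice have no direct counterpart gene, and KC is the mouse chemokine Cxcl1. Both chemokines were given into the peritoneum at 50 µg/kg on alternate days over 6 days, and vehicle was 0.1% BSA. The IL-8 and vehicle mice were male C57BL/6J of 8 weeks, the IL-8 protein was human, and the tibialis anterior (TA), a hindlimb muscle, was taken on day 7. For the KC mice, the labels name skeletal muscle, and no source used here gives their age or harvest day. The extraction note attached to every array describes human abdominal muscle biopsies, which does not match the mouse labels.

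Chromatin remodelers use ATP to slide, evict or exchange nucleosomes, the units of DNA wound on histones, and so set which DNA other proteins can reach. SWI/SNF complexes open promoters and enhancers, and in muscle they are recruited with MyoD to the genes of differentiation. ISWI complexes space nucleosomes evenly, CHD enzymes include the motor of the repressive NuRD complex, and INO80 and SWR enzymes exchange the histone variant H2A.Z.

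The values are log2 intensities after robust multi-array average (RMA), 1 per gene and array. A gene was called when its limma p, adjusted by Benjamini-Hochberg over all 23185 entries, was 0.1 or less and the groups differed by 1.5-fold or more. Each IL-8 and vehicle array is from a mouse of its own, going by the numbers of mice in the methods. The KC arrays are labelled as separate samples, and for them p-values measure only the spread between arrays. Fast muscle markers were strong on all 12 arrays, with a mean level over 10 genes of 11.67 to 12.11 on the IL-8 arrays, 11.82 to 12.06 on the KC arrays and 11.83 to 12.01 on the vehicle arrays. Liver transcripts set 3 arrays apart. The mean over 9 liver genes was 6.03 on IL-8 replicate 1, 6.79 on vehicle replicate 2 and 6.41 on vehicle replicate 4, against 2.76 to 3.42 on the other 9 arrays. Vehicle replicate 1 is thus the single vehicle array without them. At an unadjusted p of at most 0.05, 4 of the 9 liver genes were lower in IL-8 muscle than in vehicle muscle and 8 of 9 lower in KC muscle than in vehicle muscle.

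Most remodelling genes had higher values in IL-8 muscle than in vehicle muscle. The log2 fold change was above 0 for 33 of 36 genes, against 38.7% of all genes tested, and its median was 0.39, against -0.07 over all genes. At the stated threshold 4 genes were called higher (Smarca4, Ep400, Chd4 and Baz2a) and 0 lower, where 1.75% of all genes tested were called higher and 0.802% lower. A fold change of 1.5 or more upward was reached by 10 of 36, against 4.76% of all genes. Dim genes lower these all-gene shares. With them left out, 6518 of 11592 genes were above 0 and 1069 reached 1.5-fold upward, with a median of 0.05. At an unadjusted p of at most 0.05, 22 of the 36 were higher and 0 lower, and over all genes 5022 of 23185 passed in either direction. All IL-8 arrays lay above all vehicle arrays for 9 genes (Smarca4, Smarcd1, Smarcd2, Actl6a, Arid2, Chd4, Chd9, Ep400 and Smarcal1), where 4.6% of all genes did so, and below them for 0 genes, where 6.43% of all genes did. The call count depended on single arrays. It was 14 without vehicle replicate 1, of which 13 were higher, where 7.74% of all genes were then called higher and 6.66% lower. It was 10 without IL-8 replicate 1, all higher, where 3.57% of all genes were called higher. It was 0 without vehicle replicate 2, vehicle replicate 4, or any of IL-8 replicates 2 to 5, and over all genes these settings gave 0 calls, except 7 without IL-8 replicate 5. With a block for the arrays rich in liver transcripts it was 0, the median fold change was 0.28 on the log2 scale, 12 genes had an unadjusted p of at most 0.05, and 0 genes were called over the whole array. With the 3 arrays left out, vehicle is replicate 1 alone. Log2 fold changes against that array were 0.49 for Srcap (1.21 with all arrays), 0.34 for Arid1a (0.79), 0.22 for Arid2 (0.63), 0.28 for Chd7 (0.75), 0.19 for Chd8 (0.58) and 0.07 for Chd6 (0.53). Of the called genes, Smarca4 was at 0.67 (1.00 with all arrays), Ep400 at 0.48 (0.81), Baz2a at 0.31 (0.62) and Chd4 at 0.78 (0.70). How much of the result follows the liver transcripts was not tested further.

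**Figure D1:**
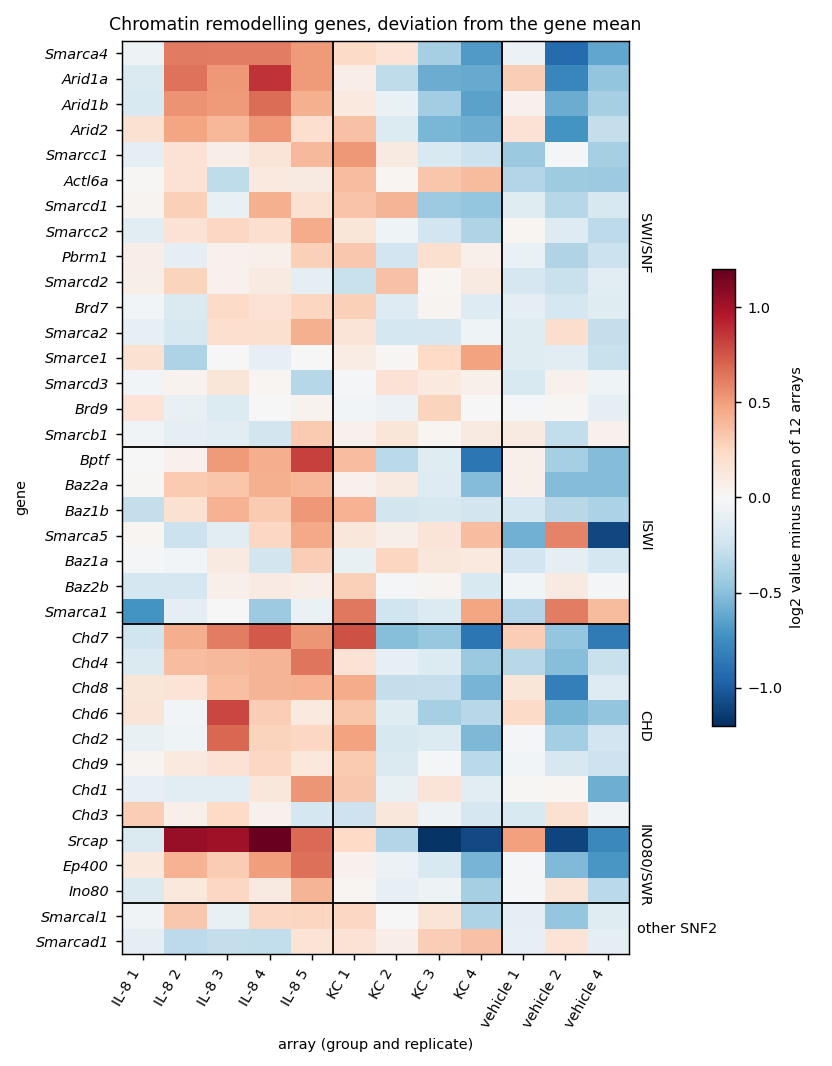
Heat map of the 36 remodelling genes (rows, grouped by family and ordered within it by log2 fold change in IL-8 against vehicle) on the 12 arrays (columns). Colour is the log2 value minus the gene's mean over the 12 arrays. IL-8 replicates 2 to 5 and KC replicate 1 are mostly red, KC replicate 4 and vehicle replicates 2 and 4 mostly blue, and IL-8 replicate 1 and vehicle replicate 1 lie between.

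Arrays of one group differed among themselves in these genes. The mean over the 36 genes was 5.53, 5.71, 5.79, 5.82 and 5.87 on IL-8 replicates 1 to 5. It was 5.79, 5.52, 5.45 and 5.33 on KC replicates 1 to 4. It was 5.51, 5.31 and 5.25 on vehicle replicates 1, 2 and 4. The IL-8 arrays therefore lay above the vehicle arrays, by little in the case of IL-8 replicate 1 against vehicle replicate 1, while the KC arrays spanned both ranges. IL-8 replicate 5 held the highest value of the 12 arrays for 10 of the 36 genes and KC replicate 1 for 8, whereas vehicle replicate 2 held the lowest for 10 and KC replicate 4 for 9.

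KC against vehicle gave no call among the remodelling genes. The count was 0 of 36, and limma called 0 of 23185 genes (0%) in this comparison, with 923 at an unadjusted p of at most 0.05 by limma and 690 by the methods' t-test. Without vehicle replicate 1, 92 genes were called, 5 higher and 87 lower, and still 0 of the 36. The median log2 fold change over the 36 genes was 0.14, against 0.00 over all genes, and 30 of 36 were above 0 where 49.1% of all genes were. The median was 0.06 with the liver-transcript block and 0.08 to 0.26 with each array left out in turn, and the sign held in every setting run for 15 of 36 genes. A fold change of 1.5 or more upward was reached by 1 of 36 (Actl6a), against 0.496% of all genes. With dim genes left out, 7056 of 11592 genes were above 0 and 88 reached 1.5-fold upward, with a median of 0.05. At the unadjusted threshold 2 genes passed, Actl6a and Smarce1. Comparing IL-8 directly with KC, 3 genes were called higher (Srcap, Ep400 and Arid1a) and 0 lower, where 1.61% of all genes were called higher and 1.41% lower (3.02% in all). The median was 0.19, against -0.05 over all genes, and 24 of 36 were above 0, where 41% of all genes were. A fold change of 1.5 or more upward was reached by 8 of 36, against 2.94% of all genes. With dim genes left out, 6059 of 11592 genes were above 0 and 656 reached 1.5-fold upward, with a median of 0.02. The count of calls was 9 without KC replicate 1, where 4.06% of all genes were then called higher, 6 without IL-8 replicate 1 (2.9%) and 2 without KC replicate 2 (1.48%). It was 0 without KC replicate 3, KC replicate 4, or any of IL-8 replicates 2 to 5, and over all genes these settings gave 0 calls, except 1 without KC replicate 4 and 8 without IL-8 replicate 5. Of the 3 arrays rich in liver transcripts, only IL-8 replicate 1 enters this comparison.

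**Figure D2:**
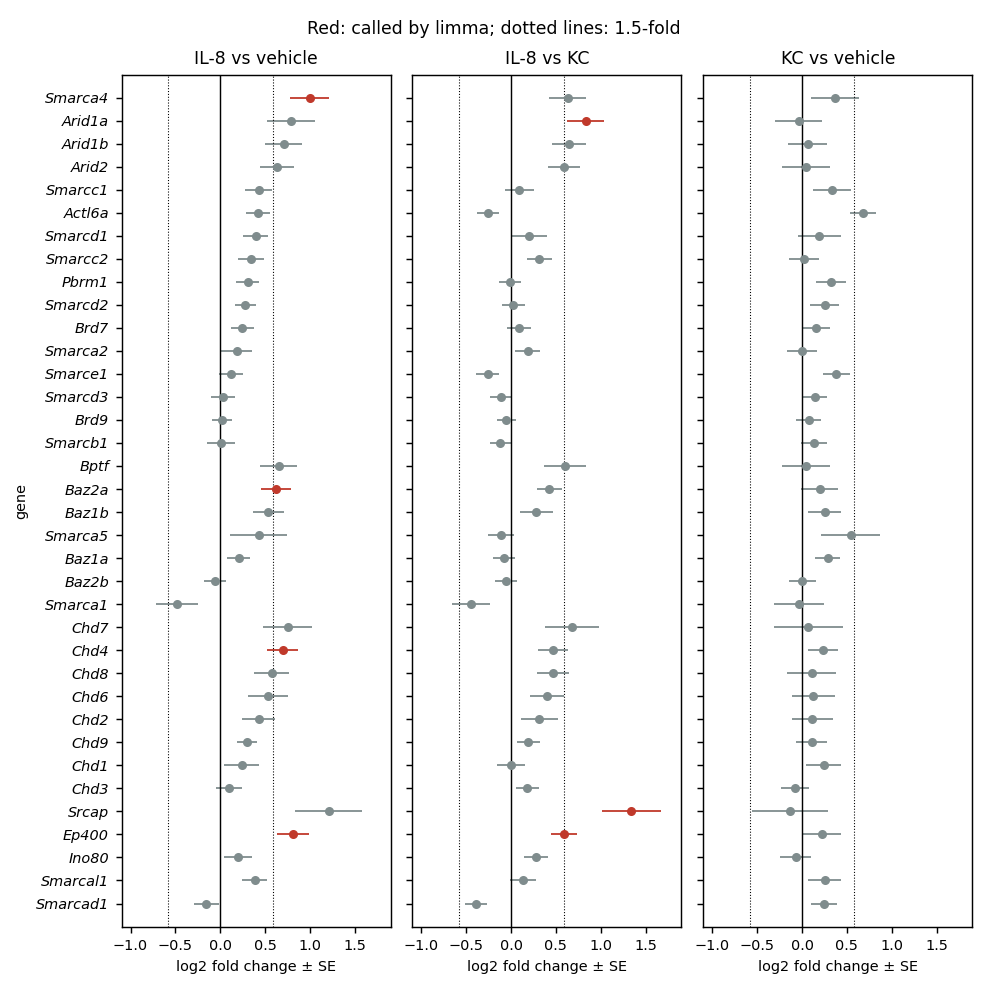
Log2 fold change (x axis, points) with its standard error (bars) for the 36 genes (y axis) in IL-8 against vehicle, IL-8 against KC and KC against vehicle. Red points were called by limma, 4, 3 and 0 genes in the panels from left to right, and dotted lines mark a fold change of 1.5.

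Promoter sequence is shown for the 3 genes with the largest log2 fold changes in IL-8 against vehicle (Srcap, Smarca4 and Ep400) and for Actl6a, which had the largest in KC against vehicle. Each is the RefSeq window (GRCm38.p6) from 250 bases before to 50 after an annotated start, written 5′ to 3′ on the gene's strand. Smarca4 is at chr9:21615919-21616218 (plus strand), Ep400 at chr5:110770668-110770967 (minus strand), Srcap at chr7:127511733-127512032 (plus strand) and Actl6a at chr3:32708296-32708595 (plus strand). Capitals mark the letters GGGCGG, the GC box bound by Sp1-type factors, on either strand.
Smarca4: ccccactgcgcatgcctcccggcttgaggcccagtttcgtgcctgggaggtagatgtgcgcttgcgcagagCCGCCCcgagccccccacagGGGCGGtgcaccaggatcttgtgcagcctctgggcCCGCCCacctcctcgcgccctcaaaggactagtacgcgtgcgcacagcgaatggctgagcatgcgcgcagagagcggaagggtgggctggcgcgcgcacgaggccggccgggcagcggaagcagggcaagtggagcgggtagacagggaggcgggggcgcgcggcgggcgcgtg
Ep400: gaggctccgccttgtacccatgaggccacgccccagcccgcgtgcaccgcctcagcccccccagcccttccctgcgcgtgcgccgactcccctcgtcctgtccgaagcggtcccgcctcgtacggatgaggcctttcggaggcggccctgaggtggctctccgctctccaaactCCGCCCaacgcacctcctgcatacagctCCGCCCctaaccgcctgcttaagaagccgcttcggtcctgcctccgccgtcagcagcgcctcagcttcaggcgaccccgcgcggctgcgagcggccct
Srcap: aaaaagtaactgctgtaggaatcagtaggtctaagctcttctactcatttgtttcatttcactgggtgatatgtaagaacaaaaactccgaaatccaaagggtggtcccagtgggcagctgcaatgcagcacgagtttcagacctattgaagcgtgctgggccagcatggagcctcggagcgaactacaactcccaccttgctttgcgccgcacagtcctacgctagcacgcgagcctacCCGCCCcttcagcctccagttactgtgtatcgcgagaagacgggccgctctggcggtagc
Actl6a: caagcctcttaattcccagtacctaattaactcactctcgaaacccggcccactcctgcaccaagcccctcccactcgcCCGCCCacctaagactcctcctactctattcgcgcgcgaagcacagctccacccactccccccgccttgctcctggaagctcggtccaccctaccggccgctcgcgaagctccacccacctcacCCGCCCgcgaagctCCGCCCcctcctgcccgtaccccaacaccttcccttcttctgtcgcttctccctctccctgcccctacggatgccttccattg
The GC box letters occurred 3 times in the Smarca4 window, 2 times in Ep400, 1 time in Srcap and 3 times in Actl6a. Promoter windows were matched by Entrez gene identifier for 29 of the 36 genes, 34 windows in all, and the others are Smarce1, Arid2, Baz1a, Chd1, Chd2, Chd3 and Chd7. GGGCGG was in 30 of the 34 windows (88.2%), against 35.6% of 32817 windows of all genes. TATAAA, the TATA box, was in 5.88%, against 13.6% of all, and CCAAT, the CCAAT box, was in 29.4%, against 37.4%, each searched on both strands. The windows held a median of 29 CpG pairs and 65.8% G and C, against 7 and 52.7% over all windows. A match is a description of the letters only.

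In the SWI/SNF family all 16 genes had a positive log2 fold change in IL-8 against vehicle, and Smarca4 was the 1 called. Over all genes 38.7% were above 0 and 1.75% were called higher. Smarca4, which encodes BRG1, an ATPase of the complex, was at 5.66, 6.35, 6.33, 6.34 and 6.23 on the IL-8 arrays, 5.95, 5.88, 5.32 and 5.05 on the KC arrays, and 5.65, 4.80 and 5.10 on the vehicle arrays. The lowest IL-8 array, replicate 1, lay just above the highest vehicle array, replicate 1, and 4 of 5 IL-8 arrays lay above all KC arrays. Smarca4 rose by a log2 fold change of 1.00 ± 0.21 (SE, adjusted p = 0.0908) in IL-8 against vehicle, and the value was 0.63 ± 0.21 against KC (adjusted p = 0.129). Smarca2, which encodes BRM, the alternative ATPase, had a log2 fold change of 0.18 ± 0.17 against vehicle (adjusted p = 0.542).

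The subunits that tell the SWI/SNF assemblies apart include Arid1a and Arid1b, DNA-binding subunits of BAF, and Arid2, Pbrm1 and Brd7 of PBAF. Arid1a was at 5.24, 6.07, 5.94, 6.28 and 5.93 on the IL-8 arrays, 5.50, 5.11, 4.82 and 4.82 on the KC arrays, and 5.72, 4.64 and 4.95 on the vehicle arrays. Replicate 1 of the IL-8 group was lower than KC replicate 1 and vehicle replicate 1, and the other 4 IL-8 arrays were above every KC and vehicle array. Arid1a was called higher in IL-8 than in KC (0.83 ± 0.21, SE, adjusted p = 0.0753), and against vehicle its log2 fold change of 0.79 ± 0.27 missed the threshold (adjusted p = 0.143). Arid1b had 0.71 ± 0.21 against vehicle and 0.65 ± 0.19 against KC (adjusted p = 0.116 and 0.107). Arid2 had 0.63 ± 0.19 and 0.59 ± 0.18 (adjusted p = 0.116 and 0.111). Pbrm1 had 0.31 ± 0.12 against vehicle and -0.01 ± 0.13 against KC, and Brd7 had 0.25 ± 0.13 and 0.09 ± 0.13.

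None of the remaining SWI/SNF subunits was called. In IL-8 against vehicle the log2 fold change was 0.43 ± 0.15 for Smarcc1, 0.34 ± 0.14 for Smarcc2, 0.39 ± 0.14 for Smarcd1 and 0.28 ± 0.12 for Smarcd2, which are scaffold and BAF60 subunits. Smarcd3, the BAF60c subunit linked to heart and skeletal muscle genes, had 0.03 ± 0.13, Smarcb1, a core subunit, had 0.01 ± 0.15, and Brd9, of the non-canonical complex, had 0.02 ± 0.11. The sign of these last 3 changed with the processing. Smarce1, an HMG-box subunit, had 0.12 ± 0.13. Over the 16 SWI/SNF genes the median was 0.32 in IL-8 against vehicle, 0.15 in KC against vehicle and 0.09 in IL-8 against KC.

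Actl6a, an actin-related subunit that SWI/SNF shares with other remodelers, was picked out after its values were seen. It was at 5.28, 5.44, 4.96, 5.39 and 5.37 on the IL-8 arrays, 5.64, 5.29, 5.60 and 5.65 on the KC arrays, and 4.91, 4.84 and 4.83 on the vehicle arrays. Both chemokine groups lay wholly above vehicle, and the KC arrays overlapped the IL-8 arrays only through KC replicate 2. The log2 fold change was 0.68 ± 0.14 in KC against vehicle (unadjusted p = 0.00086, adjusted p = 0.994 by limma), 0.42 ± 0.13 in IL-8 against vehicle (adjusted p = 0.125) and -0.26 ± 0.13 in IL-8 against KC (adjusted p = 0.287). Smarce1 and Baz1a also lay wholly above vehicle on the KC arrays, so 3 of 36 genes did, where 2.5% of all genes did.

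**Figure D3:**
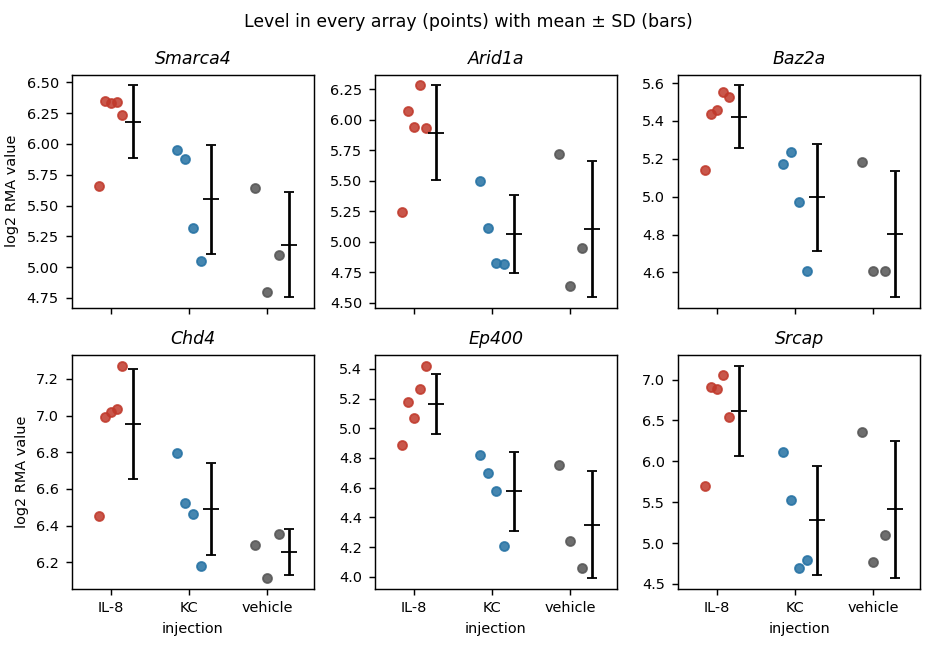
Log2 value (y axis) of the 6 genes called in any comparison on each IL-8, KC and vehicle array (x axis, points), with the group mean and SD (bars). IL-8 replicate 1, the leftmost IL-8 point, is the lowest of its group in each of the 6 panels, and vehicle replicate 1, the leftmost vehicle point, is the highest of its group in all but Chd4.

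In the ISWI family 5 of 7 genes had a positive log2 fold change in IL-8 against vehicle, and Baz2a was the 1 called. These counts stand beside 38.7% above 0 and 1.75% called higher over all genes. Baz2a encodes TIP5, the partner that directs ISWI to ribosomal DNA in the silencing complex NoRC. It was at 5.14, 5.44, 5.46, 5.55 and 5.53 on the IL-8 arrays, 5.17, 5.24, 4.97 and 4.61 on the KC arrays, and 5.19, 4.61 and 4.61 on the vehicle arrays. IL-8 replicate 1 lay below vehicle replicate 1 and among the KC arrays, and the other 4 IL-8 arrays lay above both groups. Baz2a rose by 0.62 ± 0.16 against vehicle (adjusted p = 0.0995), and had 0.43 ± 0.14 against KC (adjusted p = 0.133). Bptf, the large subunit of NURF that reads histone marks, had 0.65 ± 0.21 against vehicle and 0.60 ± 0.24 against KC. Baz1b, the WSTF partner, had 0.54 ± 0.18 and 0.28 ± 0.18.

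The ISWI ATPases gave values in both directions. Smarca5 (SNF2H) had a log2 fold change of 0.43 ± 0.32 against vehicle, with vehicle arrays from 4.99 to 6.67 that enclosed all 5 IL-8 arrays (5.82 to 6.54). Smarca1 (SNF2L) had -0.48 ± 0.23 against vehicle and -0.45 ± 0.21 against KC, and was the only gene of the 36 called lower under any setting, in IL-8 against vehicle without vehicle replicate 1. With the liver-transcript arrays left out, its value against vehicle was 0.19, the opposite direction. Baz1a had 0.21 ± 0.13 and Baz2b -0.06 ± 0.12 against vehicle. Over the 7 ISWI genes the median was 0.43 in IL-8 against vehicle, 0.20 in KC against vehicle and -0.06 in IL-8 against KC.

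All 8 CHD genes had a positive log2 fold change in IL-8 against vehicle, from 0.10 (Chd3) to 0.75 (Chd7), with 1 called. Of all genes tested, 38.7% were above 0 and 1.75% were called higher. Chd4, the main ATPase of NuRD, was at 6.45, 6.99, 7.02, 7.04 and 7.27 on the IL-8 arrays, 6.80, 6.53, 6.46 and 6.18 on the KC arrays, and 6.30, 6.11 and 6.35 on the vehicle arrays. The vehicle arrays were close together and all below the IL-8 arrays, and IL-8 replicate 1 lay within the KC range. Chd4 rose by 0.70 ± 0.17 against vehicle (adjusted p = 0.0954) and had 0.46 ± 0.17 against KC (adjusted p = 0.16). Chd3, another NuRD ATPase, had 0.10 ± 0.14 against vehicle (adjusted p = 0.698).

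Chd7, mutated in human CHARGE syndrome, had 0.75 ± 0.27 against vehicle and 0.68 ± 0.30 against KC. Its IL-8 arrays ran from 4.64 to 5.60, its KC arrays from 4.01 to 5.64 and its vehicle arrays from 4.03 to 5.17, so the groups overlapped. Chd8, a regulator of beta-catenin targets, had 0.58 ± 0.20 and 0.47 ± 0.18, and Chd6 had 0.53 ± 0.22 and 0.40 ± 0.19. Chd2, Chd9 and Chd1 had 0.43 ± 0.18, 0.30 ± 0.11 and 0.24 ± 0.20 against vehicle. Over the 8 CHD genes the median was 0.48 in IL-8 against vehicle, 0.11 in KC against vehicle and 0.36 in IL-8 against KC.

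Srcap had the largest log2 fold change of the 36 genes in both comparisons of IL-8. This ATPase, which loads H2A.Z, was at 5.70, 6.91, 6.89, 7.06 and 6.55 on the IL-8 arrays, 6.11, 5.52, 4.69 and 4.79 on the KC arrays, and 6.36, 4.77 and 5.10 on the vehicle arrays. IL-8 replicate 1 lay below KC replicate 1 and vehicle replicate 1, while the other 4 IL-8 arrays lay above all others. Srcap was called higher in IL-8 than in KC (1.34 ± 0.33, SE, adjusted p = 0.0721), and its 1.21 ± 0.38 against vehicle was not called (adjusted p = 0.127), with a vehicle SD of 0.84 (n = 3). Leaving out IL-8 replicate 1 or KC replicate 1 kept the call against KC, at 1.57 and 1.62, as did leaving out KC replicate 2, at 1.42. The call was lost without KC replicate 3 or 4 or any of IL-8 replicates 2 to 5, where the value was 1.15 or more.

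Ep400, the ATPase p400 of the TIP60 complex, was called in both comparisons of IL-8. It was at 4.89, 5.18, 5.07, 5.27 and 5.42 on the IL-8 arrays, 4.82, 4.70, 4.58 and 4.21 on the KC arrays, and 4.75, 4.24 and 4.06 on the vehicle arrays. All IL-8 arrays lay above all KC and vehicle arrays, which no other gene of the 36 showed in both comparisons. In IL-8 against KC it was the single gene of the 36 without overlap, where 2.48% of all genes lay wholly above and 4.2% wholly below. Ep400 rose by 0.81 ± 0.18 against vehicle (adjusted p = 0.0908) and 0.59 ± 0.15 against KC (adjusted p = 0.0753). Ino80, the third enzyme of the family, had 0.20 ± 0.16 and 0.27 ± 0.13 (adjusted p = 0.466 and 0.282).

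The other SNF2-type enzymes, which act in DNA repair and replication, gave no call. Smarcad1, which acts in heterochromatin maintenance, was at 5.11, 4.90, 4.93, 4.93 and 5.39 on the IL-8 arrays, 5.40, 5.30, 5.51 and 5.57 on the KC arrays, and 5.12, 5.39 and 5.10 on the vehicle arrays. IL-8 replicate 5 overlapped the KC arrays and the other 4 were below them. Its log2 fold change was -0.39 ± 0.12 in IL-8 against KC (adjusted p = 0.114) and -0.15 ± 0.14 against vehicle. Smarcal1, an annealing helicase of stalled replication forks, was at 5.32, 5.69, 5.27, 5.61 and 5.62 on the IL-8 arrays, 5.61, 5.36, 5.52 and 4.99 on the KC arrays, and 5.25, 4.90 and 5.21 on the vehicle arrays. All IL-8 arrays lay above all vehicle arrays, by 0.38 ± 0.14 on the log2 scale, which was not called (adjusted p = 0.167).

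Across all families, the 17 catalytic ATPases had a median log2 fold change of 0.43 in IL-8 against vehicle, with 3 called. The 19 partner subunits had 0.34 with 1 called. Over all genes the median was -0.07 and 1.75% were called higher. In IL-8 against KC the medians were 0.27 with 2 called and 0.09 with 1 called, where 1.61% of all genes were called higher. In KC against vehicle they were 0.11 and 0.16 with 0 called in each.

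A wider list of 72 remodelling genes outside the 36, of which 71 were analysed, had smaller medians. In IL-8 against vehicle its median was 0.09 and 44 of 71 were above 0, with 1 gene called higher (1.41%, against 1.75% of all genes) and 0 lower. In IL-8 against KC the median was 0.04, with 4 called higher (5.63%, against 1.61% of all genes) and 1 lower (1.41%, against 1.41%). Trrap, a scaffold of the TIP60 complex that also holds Ep400, was called in both, at 0.70 ± 0.15 against vehicle (adjusted p = 0.0908) and 0.62 ± 0.16 against KC (adjusted p = 0.0786). Its IL-8 arrays ran from 5.05 to 5.59, its KC arrays from 4.43 to 5.06 and its vehicle arrays from 4.38 to 4.84. Against KC, Ino80d of INO80, Gatad2b of NuRD and Bicra of the non-canonical SWI/SNF complex were higher by 0.94, 0.83 and 0.79, and Actr6, a SRCAP complex subunit, fell by 0.77. Of the 7 other ISWI partners and 11 other SNF2-family ATPases none was called. Pole3, a histone-fold subunit of CHRAC, had the smallest p of the first, at -0.31 ± 0.13 against KC (adjusted p = 0.201). Ercc6, the repair ATPase CSB, had that of the second, at 0.48 ± 0.12 against vehicle (adjusted p = 0.0954), under the fold change minimum.

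Remodelling genes are long, and gene span moved with the arrays. The 36 genes had a median span of 75616.5 bases, against 15555 over 23185 genes. The slope of the log2 value on log10 span was 0.04 to 0.08 on the IL-8 arrays, -0.09 to 0.03 on the KC arrays and -0.11 to 0.03 on the vehicle arrays, with KC replicate 1 and vehicle replicate 1 at the top of their groups. Across all genes, which are not independent replicates, the fold change in IL-8 against vehicle had a Spearman rho of 0.27 with span, and across the 36 genes it was 0.22. With each array's trend on span removed, a setting added after the data were seen, Smarca4 and Ep400 were the called genes in IL-8 against vehicle, at 0.94 and 0.75, and Srcap and Arid1a in IL-8 against KC, at 1.32 and 0.79. Over all genes 0.996% and 1.47% were then called higher in these comparisons. The median over the 36 genes was 0.35 in IL-8 against vehicle and 0.15 in IL-8 against KC.

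**Figure D4:**
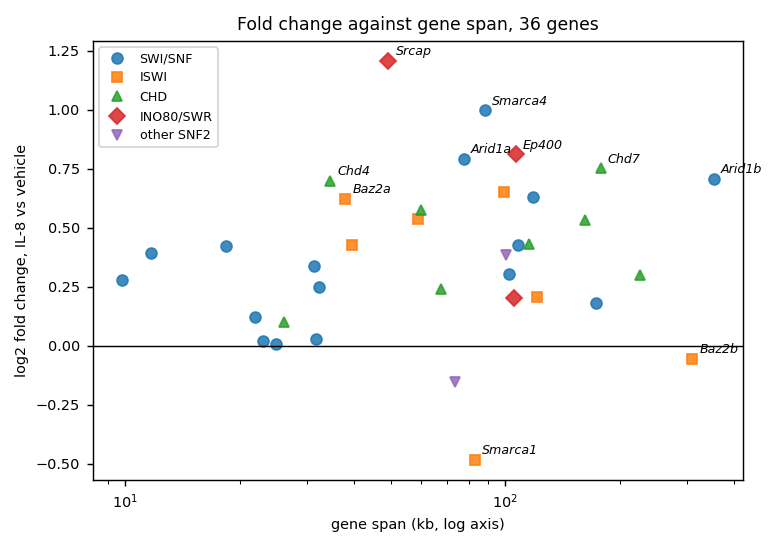
Log2 fold change in IL-8 against vehicle (y axis) of the 36 genes against gene span in kilobases (x axis, log scale), with symbols by family. The 9 shortest SWI/SNF genes lie between 0.01 and 0.42, and the 4 called genes lie at intermediate spans.

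Markers of other cells also differed between the arrays. Over 8 endothelial genes the mean level was 5.91 to 6.25 on the IL-8 arrays, 5.36 to 6.01 on the KC arrays and 5.25 to 6.33 on the vehicle arrays, highest on vehicle replicate 1. Vwf and Robo4 of that list were called higher in IL-8 than in vehicle, by 0.64 and 0.75, and Robo4 also against KC, by 0.61. Over all genes 1.75% were called higher in IL-8 than in vehicle and 1.61% higher than in KC. Against vehicle 6 of the 8 endothelial genes were above 0, where 38.7% of all genes were. Tek was at -0.09 and Emcn at -0.29, neither of them called. Over 6 adipocyte genes the mean was 3.67 to 4.65 on the IL-8 arrays, 3.58 to 4.36 on the KC arrays and 4.11 to 5.22 on the vehicle arrays, and Fabp4, an adipocyte and capillary fatty acid carrier, fell by 0.76 in IL-8 against vehicle. Over 7 macrophage genes it was 4.70 to 5.62 on the IL-8 arrays, 4.53 to 5.67 on the KC arrays and 4.96 to 5.81 on the vehicle arrays. At an unadjusted p of at most 0.05, 4 of 8 endothelial genes were higher and 3 of 7 fibro-adipogenic genes lower in IL-8 than in vehicle. Over all genes 5022 of 23185 passed in either direction. At the stated threshold, which Fabp4 passed, 0.802% of all genes were called lower. No gene of the macrophage, neutrophil, lymphocyte, fibro-adipogenic, satellite cell, Schwann cell, liver, fast muscle or slow muscle lists was called in any of the comparisons. The part of these cells in the remodelling gene values was not tested, and in whole muscle more cells of a type and more RNA per cell cannot be told apart.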

How the data were processed

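Total RNA of 12 mouse skeletal muscle samples was hybridized to GeneChip Mouse Gene 2.0 ST arrays. The values deposited by the authors are log2 RMA intensities, and the submitters' processing notes name affy 1.36.1 and R 2.15.1. RMA corrects background, equalizes probe distributions between arrays and summarizes probes. Differences remained at the gene level. The median value was 3.32 to 3.38 on the IL-8 arrays, 3.31 to 3.44 on the KC arrays and 3.36 to 3.48 on the vehicle arrays. Entries were named through the platform annotation. Of 25206 entries, 23185 with 1 symbol were tested and 2021 unnamed entries were not. Arrays give no sequencing depth, and their number limits precision.

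Groups came from the treatment labels. Each comparison was fitted on its own groups' arrays with limma 3.58.1 (lmFit, eBayes) in R 4.3.3, two-sided, with Benjamini-Hochberg adjustment. The fit was also run on simulated data with independent noise per gene. That check did not model deviations shared by genes on an array, such as liver transcripts. The study's comparative marker selection in GenePattern was not run, and Welch's t-test here does not stand in for it. Array values are given for members called in any comparison, or for the 2 with the smallest p in a family with none, and other lists by counts with values for called genes or else the smallest p. Members and lists were chosen with earlier results of these data known. Of 151 genes in the other lists, 6 were not analysed here. Promoters came from RefSeq (GRCm38.p6). Alternatives were a shared fit of the 12 arrays, unnamed entries included, and omission of dim genes (mean at or below the median). Others were quantile normalization, median centring, an intensity trend, array weights, a replicate block, other thresholds and Welch's t-test. Handling of liver transcripts, gene span and leaving out each array completed them. Figures used matplotlib 3.10.9.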

Additional observations from a re-analysis of the deposited data

Results flagged for a closer look

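Of 72 groups of 4 or 5 arrays tested for 1 array far from the others, 5 were flagged, and chance alone flags about 1 in 20. IL-8 replicate 1 was low for 3 genes, with Smarca4 at 5.66 (other IL-8 arrays 6.23 to 6.35), Arid1b at 6.15 (others at 6.76 or above) and Baz2a at 5.14 (others 5.44 to 5.55). That array also held liver transcripts, with a mean of 6.03 over 9 liver genes, and their part in these values was not tested. Among KC arrays, Actl6a was low on replicate 2 at 5.29 (others 5.60 to 5.65), and Baz1b was high on replicate 1 at 6.45 (others 5.81 to 5.84).

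In the direct comparison of IL-8 with KC, limma called Srcap (1.34), Arid1a (0.83) and Ep400 (0.59) among the 36 genes. In the other remodelling lists it called Ino80d (0.94), Gatad2b (0.83), Bicra (0.79), Trrap (0.62) and Actr6 (-0.77), and among endothelial markers Robo4 (0.61). Values are log2 fold changes in IL-8 over KC. Over all genes 1.61% were called higher and 1.41% lower. The calls among the 36 genes depended on the processing. Their number was 0 with all arrays in one fit, with Welch's t-test, with the replicate block and without some single arrays.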

How the results depend on the processing

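The number of the 36 genes called in IL-8 against vehicle was 4. It was 1 with all 12 arrays in one fit (Ep400), where 0.349% of all genes were called higher. With an intensity trend (1.41%) and with the gene span trend removed (0.996%) it was 2, Smarca4 and Ep400 in both. With dim genes left out it was 8 (6.46%), and with array weights 11 (5.21%). Quantile normalization or an adjusted p of at most 0.05 gave 0, with 2 genes called over the whole array in each. Welch's t-test and the liver-transcript block gave 0, with 0 called over the whole array. At an unadjusted p of at most 0.05, 13 of the 36 genes passed by the first and 12 by the second. Leaving out each array in turn gave 0 to 14 of the 36. In IL-8 against KC the number was 3, and it was 6 with dim genes left out (4.68% of all genes called higher), with array weights (2.92%), and with the liver-transcript block or without those arrays (2.9% in both). It was 0 with all 12 arrays in one fit, an adjusted p of at most 0.05 or Welch's t-test (7 unadjusted). Over all genes these gave 1, 1 and 0 calls. Leaving out each array gave 0 to 9 of the 36. In KC against vehicle it was 0 under every setting run. Causes were not tested. No pairing of arrays by replicate number was seen. Deviations from group means correlated at -0.36 to 0.36 over 10 same-number pairs. In 4 of 20 pairings of an array with another group, the array matched best with its own number. Correlations over so few arrays cannot exclude a pairing. With the replicate block the count was 0 in each comparison, with 8 unadjusted in IL-8 against vehicle and 7 in IL-8 against KC. Over all genes that block also gave 0 calls in each.

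The median log2 fold change over the 36 genes moved by less than the spread between arrays under every setting run. That spread, the SD within groups of the arrays' mean over the 36 genes, was 0.16. It exceeds the median of 0.14 in KC against vehicle, so a move to 0 there would not be flagged. Leaving out each array gave a median of 0.33 to 0.43 in IL-8 against vehicle, 0.08 to 0.26 in KC against vehicle and 0.12 to 0.29 in IL-8 against KC. Without the liver-transcript arrays, which leaves 1 vehicle array and so no count, the median was 0.27 in IL-8 against vehicle and 0.06 in KC against vehicle. The sign held in every setting run for 31 of 36 genes in IL-8 against vehicle, 15 in KC against vehicle and 30 in IL-8 against KC. In KC against vehicle, where none was called, the sign turned under the liver-transcript block for Smarca4 (-0.10), Baz2a (-0.19) and Ep400 (-0.18). Under the replicate block Srcap was at 0.062 and Arid1a at 0.042, and Arid1a was at 0.014 under median centring and 0.0054 under array weights, against -0.13 for Srcap and -0.04 for Arid1a as reported. Leaving out each array gave -0.45 to 0.34 for Srcap and -0.27 to 0.27 for Arid1a. Over all genes, IL-8 against vehicle gave 406 higher and 186 lower calls, 554 and 106 under median centring, and 2 and 0 under quantile normalization. The alternative on protein length was not run, as no protein table was used here.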
